A study of Homo sapiens with 6 samples.

Results

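The genes described here encode the histone acetyltransferase (HAT) module of the human TIP60 complex and another module of that complex, known as TINTIN. They were chosen by gene symbol: KAT5, ING3, EPC1, EPC2 and MEAF6 of the HAT module, MORF4L1, MORF4L2, MRGBP and BRD8 of TINTIN, and MBTD1, which associates with EPC1. All 10 symbols were found among the 60609 genes counted, and all 10 passed the filter that left 19114 genes for testing. Poly(A) RNA was sequenced from 6 cultures of K562, an established human leukaemia cell line. In every culture the endogenous EP400 protein carried a dTAG degradation tag and had been removed with 500 nM dTAGV-1 for 24 h. The groups differed in the EP400 transgene placed at the AAVS1 locus, which was wild-type EP400 in 3 libraries (WT) and EP400 without the region that binds TRRAP in 3 libraries (Delta-TRRAP). According to the study's methods each complemented line was a single clone, so clone and genotype cannot be told apart, and p-values measure only the spread between libraries of the same clone.

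TIP60 joins a chromatin remodeller to an acetyltransferase, and EP400 is the scaffold that holds both. KAT5 is the enzyme that acetylates histones H4, H2A and H2A.Z, while ING3, an EPC protein and MEAF6 form its module and EPC1 or EPC2 ties that module to the rest of the complex. TINTIN is attached separately to EP400 and holds an MRG protein (MORF4L1, also called MRG15, or MORF4L2, also called MRGX), the bridging protein MRGBP and the bromodomain protein BRD8. The TRRAP module is the surface that transcription activators bind. The comparison addresses whether transcripts of the acetylating and reader subunits differed between cells whose EP400 can hold TRRAP and cells whose EP400 cannot.

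Gene counts summed to between 39966818 and 42616061 per WT library and between 35076835 and 38491513 per Delta-TRRAP library. Mitochondrial genes took 3.18% to 3.71% of the gene counts of WT libraries, against 5.07% to 6.24% for Delta-TRRAP. All 8 erythroid and leukaemia markers of K562 were detected in every library, and their summed normalized count ran from 35412 to 37589 for WT and from 40688 to 43480 for Delta-TRRAP. Of 8 fibroblast markers, 3 to 4 had a count in each WT library and 5 to 6 in each Delta-TRRAP library, and their sum ran from 35.9 to 57.5 for WT and from 908 to 953 for Delta-TRRAP. Summed over the libraries of a group, COL1A2 went from 5 counts (WT) to 2622 (Delta-TRRAP), PDGFRB from 5 to 28 and COL3A1 from 2 to 28. COL1A2 and PDGFRB passed the test as higher (PDGFRB log2 difference 2.39 ± 0.59, SE, edgeR adjusted p = 0.00221). COL1A1 had 86 and 89 counts, DCN 35 and 26 and THY1 0 and 1, and LUM and PDGFRA were at 0 in every library. Summed lymphocyte markers spanned 495 to 507 for WT and 416 to 450 for Delta-TRRAP, with MS4A1 at 0, and summed endothelial markers from 675 to 690 for WT and from 372 to 434 for Delta-TRRAP, nearly all of it PECAM1. The part of these markers and of the mitochondrial share in the values of the 10 genes was not tested. EP400 itself had normalized counts of 4951, 4924 and 5425 in WT and 5515, 6694 and 4350 in Delta-TRRAP, so the groups overlapped (log2 difference 0.11 ± 0.11, SE, edgeR adjusted p = 0.354). Without Delta-TRRAP replicate 3 it was 0.26 (adjusted p = 0.00317), and without Delta-TRRAP replicate 2 it was -0.047. Counts per gene do not separate the tagged gene from the transgene or see a deletion inside it, so EP400 does not check the labels. TRRAP transcripts stood at 7021 ± 555 (WT) and 7121 ± 1413 (Delta-TRRAP, SD, n = 3 each), a log2 difference of 0.02 ± 0.10 (SE, adjusted p = 0.869).

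RefSeq promoter windows, which run from 250 bases before to 50 bases after an annotated start, were given for 8 of the 10 genes (ING3 and MORF4L2 had none). The 250 bases before the start are shown for KAT5, the catalytic subunit, for MRGBP and BRD8, the subunits with the largest fall and the largest rise, and for MBTD1, whose start lies beside that of another gene. They are written 5′ to 3′ on the gene's strand of GRCh38.p14, and capitals mark a match, on either strand, to one of the motifs named after them. Gene positions and distances between starts in this text follow GENCODE, whose starts can differ from these RefSeq starts. By those positions the KAT5 and BRD8 stretches lie inside their genes, as does part of the MBTD1 stretch. The BRD8 stretch also covers the start of KIF20A, a gene described below.
KAT5, chr11:65712002-65712251, plus strand: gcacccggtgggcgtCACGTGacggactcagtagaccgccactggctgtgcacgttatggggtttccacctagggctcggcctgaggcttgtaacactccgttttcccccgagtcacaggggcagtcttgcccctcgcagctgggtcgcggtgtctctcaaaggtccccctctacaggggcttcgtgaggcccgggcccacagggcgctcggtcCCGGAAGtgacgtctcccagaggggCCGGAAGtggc
MRGBP, chr20:62796223-62796472, plus strand: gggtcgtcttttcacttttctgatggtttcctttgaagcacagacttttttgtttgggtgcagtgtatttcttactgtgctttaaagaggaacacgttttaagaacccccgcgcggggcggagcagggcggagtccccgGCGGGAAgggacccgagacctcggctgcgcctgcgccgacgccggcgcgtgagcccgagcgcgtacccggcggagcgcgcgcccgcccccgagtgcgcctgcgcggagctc
BRD8, chr5:138178631-138178880, minus strand: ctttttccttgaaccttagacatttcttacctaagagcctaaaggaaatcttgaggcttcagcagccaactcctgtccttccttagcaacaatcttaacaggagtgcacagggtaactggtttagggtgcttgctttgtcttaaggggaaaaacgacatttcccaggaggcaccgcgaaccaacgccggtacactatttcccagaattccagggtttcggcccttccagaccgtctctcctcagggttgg
MBTD1, chr17:51260050-51260299, minus strand: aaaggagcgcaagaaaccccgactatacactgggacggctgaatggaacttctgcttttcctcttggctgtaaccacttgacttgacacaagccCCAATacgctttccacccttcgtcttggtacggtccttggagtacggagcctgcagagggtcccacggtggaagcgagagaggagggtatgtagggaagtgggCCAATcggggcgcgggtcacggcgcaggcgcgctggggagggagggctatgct

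7 motifs were searched in all 35116 windows of the table, and no motif match is taken as a bound site. In the KAT5 window the capitals mark an E-box (CACGTG), found in 7.26% of all windows and 9.13% of the 16265 windows of tested genes, and ETS motifs (CCGGAAG), found in 10.3% and 16.0%. The MEAF6 window also held an ETS motif. The capitals in the MRGBP window are an E2F core (GCGGGAA), present in 6.55% of all windows and 9.30% of those of tested genes. The EPC2 window held it too. So did the EPC1 window with the stretch at chr10:32347159-32347408, but not the EPC1 window with the stretch at chr10:32378770-32379019. The capitals in the MBTD1 window are CCAAT boxes (CCAAT), which 34.6% of windows hold in either set. A CCAAT box also lay in the EPC1 window with the stretch at chr10:32378770-32379019. The printed BRD8 stretch held none of the letters searched, although a YY1 motif (AAGATGGC, 2.89% of all windows and 4.54% of those of tested genes) lay just after the start of both BRD8 and KAT5. A CRE (TGACGTCA, 1.85% and 2.71%) and an NRF1 core (GCATGCGC, 3.05% and 4.67%) were found in no window of these genes. The windows differed in composition: G and C made up 51% of the BRD8 window and 68% of the MRGBP window, against a median of 64.3% over the windows of tested genes. The BRD8 window had 11 CpG dinucleotides and the MRGBP window had 40, where the median window of a tested gene had 24.

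**Figure D1:**
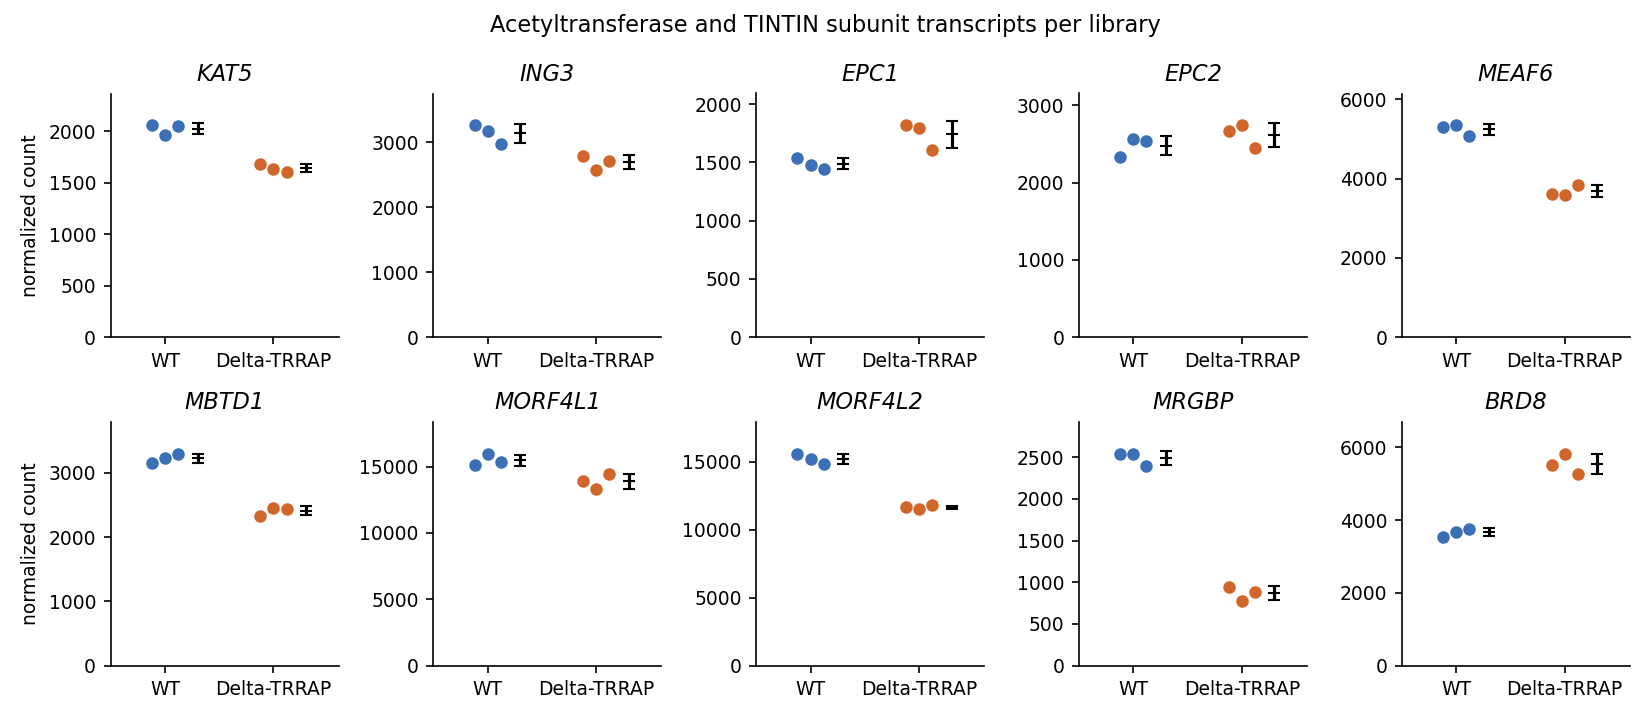
Normalized counts (vertical axes, from 0) of the 10 subunit transcripts in each WT (blue) and Delta-TRRAP (orange) library, with the mean and SD of 3 libraries in black. MRGBP sits near 2489 in WT and near 868 in Delta-TRRAP, BRD8 rises from about 3663 to 5542, and EPC2 is the only panel in which the groups overlap.

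In Delta-TRRAP cells the transcripts of KAT5, ING3, MEAF6, MBTD1, MORF4L2 and MRGBP fell and those of EPC1 and BRD8 rose, while EPC2 and MORF4L1 did not pass the test. In bulk RNA, fewer cells with a transcript and less of it per cell cannot be told apart. The sizes were small, with MRGBP the only gene that changed at least 2-fold. A gene passed at an edgeR quasi-likelihood adjusted p of 0.01 or less. Of the 10 genes 6 passed as lower and 2 as higher, where 28.9% of all tested genes passed as lower, 29.6% as higher and 58.6% in either direction. Being called at 2-fold was met by 1 of the 10, against a background of 22.5%. In 9 of the 10 the 3 WT values and the 3 Delta-TRRAP values did not overlap, where the background was 71.1%. The median log2 difference over the 10 genes was -0.26, beside 0.01 over all tested genes. All 10 were abundant, averaging 1000 normalized counts or more, and among the 6803 genes at that level 48.4% passed as lower and 20.7% as higher, the median log2 difference was -0.17, and 6.47% were called at 2-fold. In 78.9% of those 6803 genes the groups did not overlap. The counts over the 10 genes therefore lie near those of other abundant genes.

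**Figure D2:**
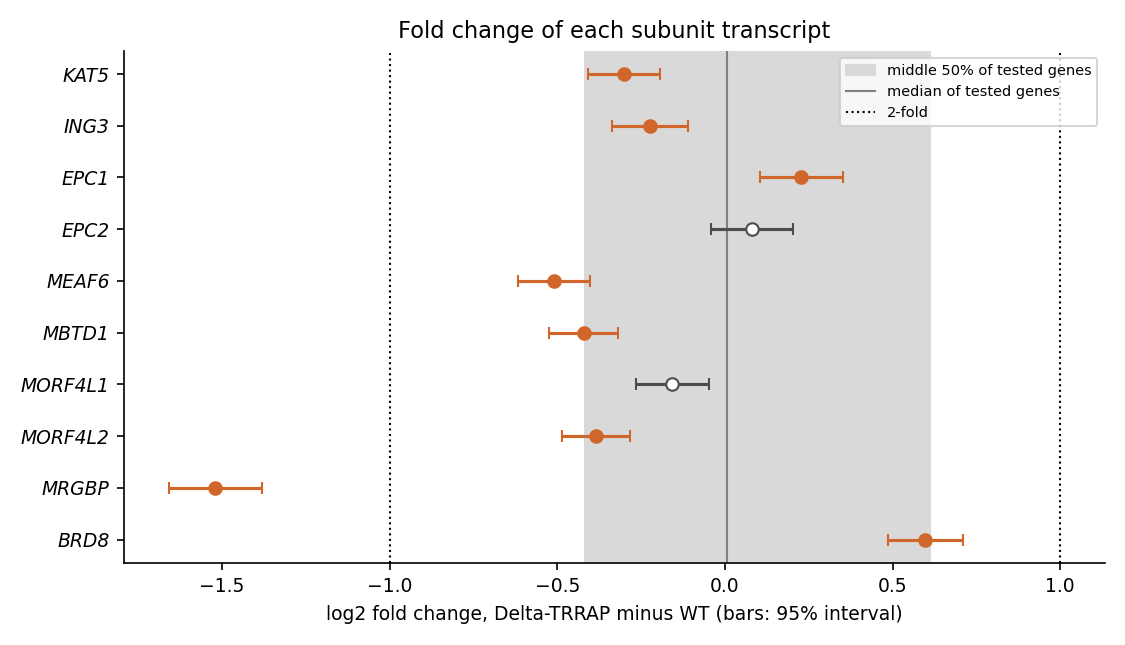
Log2 fold change, Delta-TRRAP minus WT, of each subunit transcript with a 95% interval derived from the edgeR F statistic. Filled points passed the adjusted p of 0.01, the grey band holds the middle 50% of tested genes, and MRGBP at -1.52 is the only point outside the dotted 2-fold lines.

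KAT5, also called TIP60, is the catalytic subunit. Its normalized counts were 2058, 1963 and 2049 in the WT libraries and 1684, 1638 and 1603 in the Delta-TRRAP libraries. Every Delta-TRRAP value lay below every WT value, and the means fell by 18.8%, a log2 difference of -0.30 ± 0.05 (SE, edgeR adjusted p = 6.89e-05). When only library sizes were equalised, which puts the median of all genes at 0.17, the difference was -0.14 and no longer passed (adjusted p = 0.0199). The KAT5 gene lies at chr11:65711996-65719604 on the plus strand of GRCh38 and overlaps RNASEH2C on the opposite strand. RNASEH2C, which encodes a subunit of ribonuclease H2, was 1007 ± 58.1 in WT and 979 ± 50.7 in Delta-TRRAP (SD, n = 3 each), and its log2 difference of -0.04 ± 0.06 (SE) gave an adjusted p of 0.585. The counts were made by strand, so reads of the overlapping pair were kept apart. Over the 6 libraries, the genes whose log2 CPM (a count scaled to the library total) was most like that of KAT5 were ENTPD6, TOR4A and CD69, with Pearson r of 0.999 for each among 6793 genes compared. Such values are common where 6 libraries fall into 2 groups, since 2835 of those genes had r above 0.9.

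ING3 carries a PHD finger that reads methylated tails of histone H3. It had normalized counts of 3264, 3175 and 2982 in WT and 2787, 2574 and 2716 in Delta-TRRAP, again with every Delta-TRRAP value below every WT value. The fall was 14.3%, a log2 difference of -0.22 ± 0.05 (SE, adjusted p = 0.00167). With library sizes alone it was -0.06 and did not pass (adjusted p = 0.291). The gene lies at chr7:120950763-120977216 on the plus strand.

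MEAF6, a small subunit that the KAT7, KAT6A and KAT6B acetyltransferase complexes also use, showed the largest fall of the HAT module. Its normalized counts were 5298, 5346 and 5081 in WT and 3613, 3580 and 3850 in Delta-TRRAP. The values did not overlap and the mean fell by 29.8%, a log2 difference of -0.51 ± 0.05 (SE, adjusted p = 2.76e-07). The gene lies at chr1:37489993-37514766 on the minus strand. Of 11 genes that encode the MEAF6 partners in those other complexes, 3 passed as lower and 2 as higher. Among all tested genes 28.9% passed as lower, 29.6% as higher and 58.6% in either direction. At 1000 normalized counts or more, 48.4% passed as lower and 20.7% as higher. JADE2, a scaffold of the KAT7 complex, averaged 1231 ± 26.8 normalized counts in WT against 374 ± 11.9 for Delta-TRRAP (SD, n = 3 each) and fell as the one 2-fold call of this list, with a log2 difference of -1.72 ± 0.06 (SE). BRPF3, another scaffold that pairs with KAT7, rose from a mean of 1748 ± 77.2 up to 3427 ± 263 (SD, n = 3 each), a log2 difference of 0.97 ± 0.06 (SE). The median over the list was 0.03.

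The paralogous EPC1 and EPC2 proteins can each tether the acetyltransferase to EP400. EPC1 transcripts were 1540, 1478 and 1447 in WT and 1818, 1799 and 1606 in Delta-TRRAP. All Delta-TRRAP values were higher than all WT values, and the mean rose by 17.1%, a log2 difference of 0.23 ± 0.06 (SE, adjusted p = 0.00273). That call was lost without WT replicate 2, WT replicate 3 or Delta-TRRAP replicate 1, where the difference was 0.19 to 0.21 (adjusted p = 0.0215 to 0.0241). EPC2 transcripts were 2333, 2563 and 2535 in WT and 2670, 2742 and 2444 in Delta-TRRAP. The groups overlapped, and the log2 difference of 0.08 had a 95% interval from -0.04 to 0.20 (adjusted p = 0.228). It was 0.02 without WT replicate 1, 0.05 without Delta-TRRAP replicate 2 and 0.13 without Delta-TRRAP replicate 3 (adjusted p = 0.755, 0.509 and 0.0482). With library sizes alone EPC2 passed as higher (0.24, adjusted p = 0.00213), and EPC1 stood at 0.38.

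The share of the EPC pair carried by EPC2 was read as the log2 ratio of EPC2 to EPC1 counts within each library. It was 0.60, 0.79 and 0.81 in WT and 0.55, 0.61 and 0.61 in Delta-TRRAP. The ranges overlapped, with a mean difference of -0.15 (two-sided exact permutation test, p = 0.3, Benjamini-Hochberg adjusted p = 0.3 over 2 ratios). With 3 libraries against 3 that test cannot give a p below 0.1. EPC1 lies at chr10:32267751-32378798 on the minus strand, with promoter windows at separate starts, and EPC2 at chr2:148644440-148787569 on the plus strand. Counts per gene do not say which EPC1 start was used.

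MBTD1 holds malignant brain tumour repeats that bind methylated histone H4, and it joins the complex through EPC1. It had normalized counts of 3156, 3236 and 3297 in WT and 2335, 2458 and 2441 in Delta-TRRAP. The groups did not overlap and the mean fell by 25.3%, a log2 difference of -0.42 ± 0.05 (SE, adjusted p = 1.56e-06). MBTD1 lies at chr17:51177425-51260163 on the minus strand, and its start is 383 bases from that of UTP18, a ribosome biogenesis factor read in the opposite direction. UTP18, picked for that position, had normalized counts of 6561, 6928 and 6197 in WT and 4820, 4527 and 4979 in Delta-TRRAP. It fell by 0.46 on the log2 scale (SE 0.06, adjusted p = 2.88e-06), close to the value of MBTD1 beside it. A similar fall was seen on the other side of MBTD1. There the log2 difference was -0.50 for NME1 (adjusted p = 3.27e-05) and -0.43 for SPAG9 (adjusted p = 1.31e-05). Further out, TOB1 at -0.13, TOM1L1 at 0.05 and COX11 at -0.04 did not pass. The fall was thus not limited to MBTD1 and UTP18, and the part of their close starts was not tested.

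TINTIN held both the largest fall and the largest rise. MRGBP, which bridges the MRG protein and BRD8, had normalized counts of 2533, 2540 and 2394 in WT and 939, 779 and 886 in Delta-TRRAP. The highest Delta-TRRAP value was well under the lowest WT value. The mean fell by 65.1%, a log2 difference of -1.52 ± 0.07 (SE, 95% interval -1.66 to -1.38, adjusted p = 1.94e-11). It was called at 2-fold in every alternative run, with values from -1.58 to -1.36.

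BRD8, a bromodomain protein of the kind that binds acetylated histones, had normalized counts of 3544, 3683 and 3761 in WT and 5526, 5826 and 5273 in Delta-TRRAP. No value of one group reached the other, and the mean rose by 51.3%, a log2 difference of 0.60 ± 0.05 (SE, 95% interval 0.49 to 0.71, adjusted p = 7.36e-08). BRD8 lies at chr5:138139770-138178953 on the minus strand and overlaps the start of KIF20A, a mitotic kinesin read in the opposite direction, with annotated starts 234 bases apart. KIF20A, also picked for its position, was 2422, 2589 and 2631 in WT and 2831, 2798 and 2495 in Delta-TRRAP. Those values overlapped, and the log2 difference was 0.09 ± 0.06 (SE, adjusted p = 0.190), though it passed as higher when only library sizes were equalised (0.25, adjusted p = 0.00186).

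MORF4L1 carries a chromodomain that reads methylated histone H3, which its paralogue MORF4L2 lacks. MORF4L1 had normalized counts of 15153, 15967 and 15324 in WT and 13895, 13299 and 14468 in Delta-TRRAP. The groups did not overlap, but the log2 difference of -0.16 (95% interval -0.27 to -0.05) missed the threshold (adjusted p = 0.0128). It passed with limma-voom (adjusted p = 0.00789), with no filter on low counts (0.00904) and without Delta-TRRAP replicate 3 (0.00363). MORF4L1 has processed copies in the genome, and only uniquely mapped reads were counted, so its level may be understated. The copy MORF4L1P1 held 870 ± 32.4 normalized counts for WT against 812 ± 62.1 for Delta-TRRAP (SD, n = 3 each), a log2 difference of -0.10 ± 0.07 (SE, adjusted p = 0.197).

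MORF4L2 had normalized counts of 15593, 15241 and 14839 in WT and 11657, 11548 and 11787 in Delta-TRRAP. Its groups lay far apart for their spread, and the mean fell by 23.4%, a log2 difference of -0.38 ± 0.05 (SE, adjusted p = 3.30e-06). The log2 ratio of MORF4L2 to MORF4L1 counts was 0.04, -0.07 and -0.05 in WT and -0.25, -0.20 and -0.30 in Delta-TRRAP. All Delta-TRRAP ratios were lower, by 0.23 on average, and the two-sided exact permutation p of 0.1 is the smallest that 3 libraries against 3 allow (adjusted p = 0.2 over 2 ratios). MORF4L1 lies at chr15:78810487-78898139 on the plus strand and MORF4L2 at chrX:103675496-103688158 on the minus strand. Of 19 partners of the MRG proteins in the SIN3 deacetylase complexes and beyond, 9 passed as lower and 2 as higher. Their median log2 difference was -0.14. Among all tested genes 28.9% passed as lower, 29.6% as higher and 58.6% in either direction. At 1000 normalized counts or more, 48.4% passed as lower and 20.7% as higher. The largest differences of the 19 partners were those of HDAC2, a deacetylase, at -0.64 ± 0.05 and the SIN3 subunit SAP30 at -0.61 ± 0.06 (SE). None of the 19 was called at 2-fold.

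Levels were compared between the genes as normalized counts per kb of annotated exon. Exon lengths came from a later GENCODE release than the one the study counted on, so a length can include exons that were not counted. In WT, MORF4L2 stood highest at 5749 ± 142 per kb and MORF4L1 followed at 2363 ± 65.5 (SD, n = 3 each). MRGBP at 904 ± 30.0 and MEAF6 at 865 ± 23.3 per kb overlapped, and below them came ING3 at 604 ± 27.7. KAT5 at 542 ± 14.1 and BRD8 at 523 ± 15.6 per kb overlapped, as did MBTD1 at 450 ± 9.83 and EPC2 at 426 ± 21.6. EPC1 was lowest at 132 ± 4.17 per kb. In Delta-TRRAP, BRD8 stood at 791 ± 39.5 per kb, next after the MRG genes, and MRGBP stood at 316 ± 29.6 per kb, where its range overlapped that of MBTD1 at 336 ± 9.24. EPC2 at 450 ± 26.7 overlapped KAT5 at 440 ± 10.9 per kb in Delta-TRRAP. With the longest transcript as the length, MORF4L2, MORF4L1 and EPC1 held their ranks in WT, and the rest of the order changed. The distance between the MRG genes shrank, with MORF4L2 at 7748 and MORF4L1 at 6563 per kb in WT. In Delta-TRRAP they were at 5936 and 5887 per kb, and their ranges overlapped. In that scale MRGBP, BRD8 and KAT5 were level in WT at 904, 909 and 904 per kb, and MRGBP was at 316 and BRD8 at 1376 per kb in Delta-TRRAP.

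**Figure D3:**
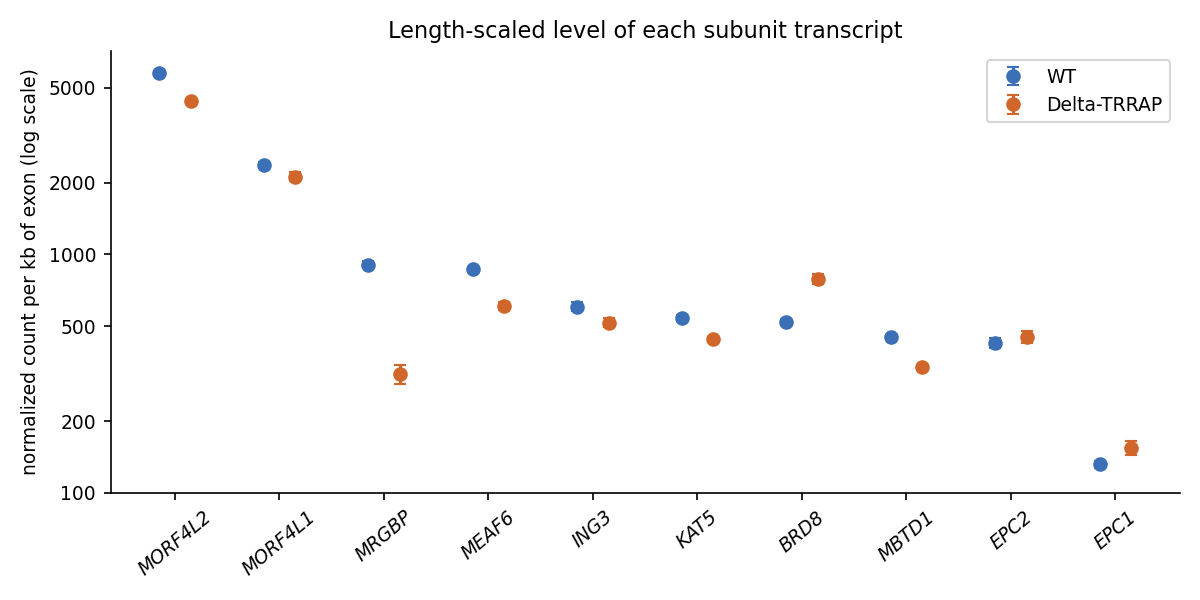
Mean normalized count per kb of annotated exon (log axis) of the 10 transcripts in WT (blue) and Delta-TRRAP (orange), with SD over 3 libraries, ordered by the WT level. MORF4L2 and MORF4L1 are highest and EPC1 lowest in both groups, and MRGBP drops from 904 to 316 while BRD8 climbs from 523 to 791.

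The fold change of each gene was set beside that of other genes on the same stretch of chromosome, counting tested genes that averaged 100 normalized counts or more and start within 5 Mb. Over all 11462 genes at that level the median log2 difference was -0.11, with 42.1% passing as lower and 26.5% as higher. MRGBP lies at chr20:62796473-62801729 on the plus strand, near the end of the long arm. Of the 47 genes around it 42 passed as lower and 2 as higher, with a median log2 difference of -0.68 and a middle range from -0.98 to -0.46. MRGBP itself was 0.84 below that median, and 4 of the 47 neighbours had a lower value. The shift reached far beyond the window: the median was -0.76 over the 25 genes within 1 Mb, -0.50 over the 59 genes 10 to 20 Mb away and -0.52 over the 98 genes 20 to 40 Mb away. Over the 80 genes more than 40 Mb away on the same chromosome it was -0.02.

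Around BRD8 the neighbours lay on the other side of 0. Of 74 genes within 5 Mb, 44 passed as higher and 8 as lower, and the median log2 difference was 0.28. BRD8 was 0.31 above that median, with 14 neighbours higher still. At 10 to 20 Mb from BRD8 the median of 62 genes was 0.39, and beyond 40 Mb the median of 241 genes on that chromosome was -0.36. DNA copy number was not measured here, and its part in the values of MRGBP, BRD8 and their neighbours was not tested.

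**Figure D4:**
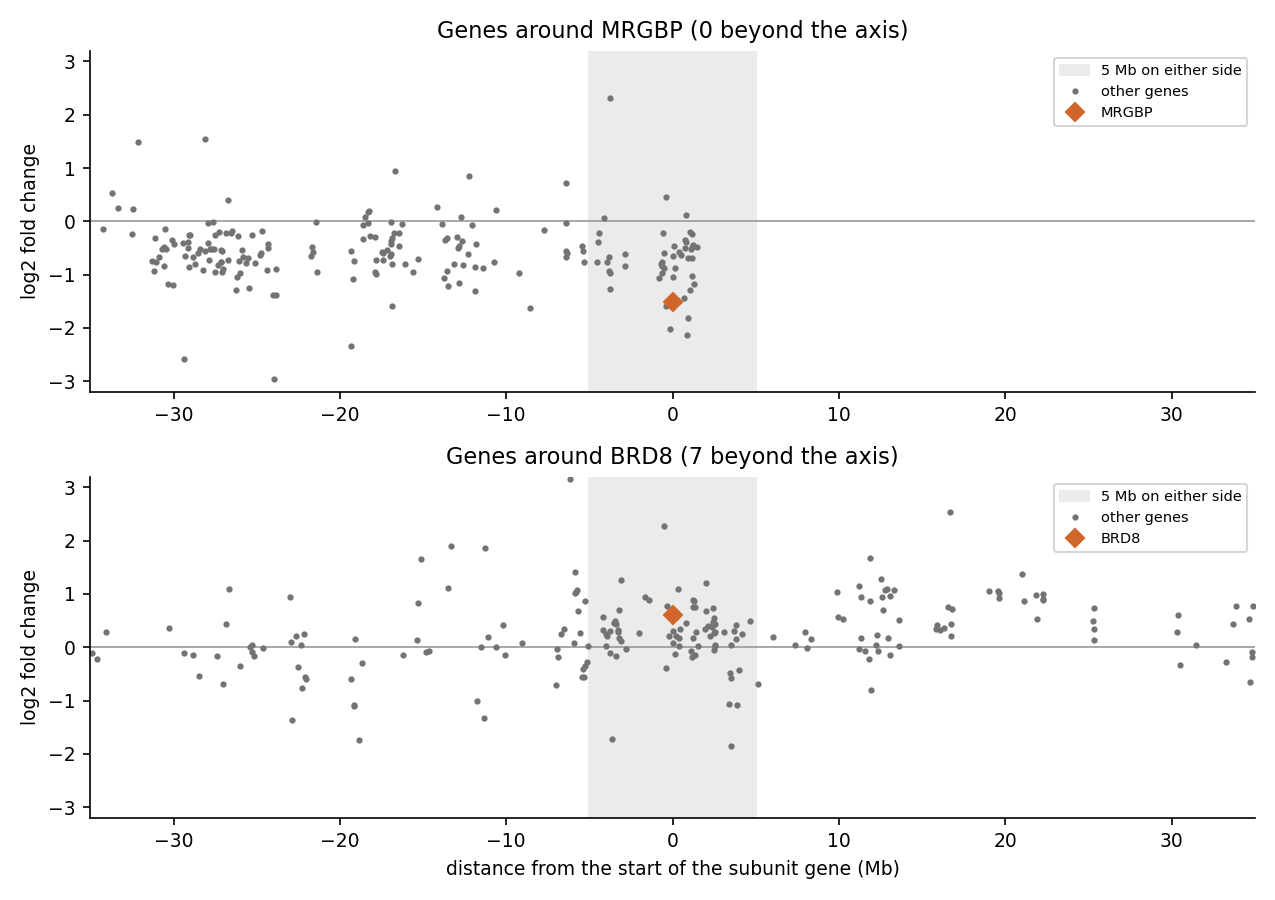
Log2 fold change, Delta-TRRAP minus WT, of genes averaging 100 normalized counts or more (grey points) by the distance of their start from that of MRGBP (top) or BRD8 (bottom), in Mb. Points around MRGBP lie mostly below 0 (median -0.68 within the shaded 5 Mb) and points around BRD8 mostly above it (median 0.28), and each titled count gives the points beyond the axis.

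The other 8 genes had neighbour medians between -0.20 (EPC2) and 0.24 (MORF4L2). MORF4L2 fell by 0.38 while the median of its 34 neighbours was 0.24, a gap of -0.63 that was the widest after that of MRGBP. MBTD1 was 0.42 below the median of its 60 neighbours and MEAF6 0.38 below that of its 76 neighbours. Among the MBTD1 neighbours, SPAG9, NME1 and UTP18, which lie close to it, fell about as much as MBTD1. ING3 was 0.34 below its 17 neighbours and KAT5 0.18 below its 178 neighbours. EPC1 and EPC2 lay 0.18 and 0.28 above theirs. MORF4L1 was within 0.02 of its neighbours. Other windows or a lower count limit moved some gaps, several of them by more than 1.5 times. With genes within 2 Mb EPC1 lay 0.42 above its neighbours. With genes within 10 Mb the gap was -0.19 for ING3, 0.18 for EPC2 and -0.006 for MORF4L1. With neighbours averaging 5 counts or more the gap was -0.57 for ING3, -0.30 for KAT5, 0.37 for EPC1, -0.18 for MORF4L1 and -0.56 for MBTD1. The gap of MRGBP stayed between -0.87 and -0.79 and that of BRD8 between 0.25 and 0.34. These gaps are descriptions with no test.

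Of 11 genes of the remaining TIP60 subunits, 8 passed as lower and 1 as higher, where 28.9% and 29.6% of all tested genes did, and 48.4% and 20.7% of those at 1000 normalized counts or more. None was called at 2-fold, and the median log2 difference was -0.43. The largest falls were those of RUVBL2 and H2AFZ. RUVBL2, an ATPase of the hexameric ring, went from 10499 ± 104 to 5436 ± 287 normalized counts (SD, n = 3 each, log2 difference -0.95 ± 0.05, SE). H2AFZ, a gene of H2A.Z, went from 27641 ± 1951 to 15500 ± 1240 (SD, n = 3 each, log2 difference -0.83 ± 0.07, SE). The list also held H2AFV, another gene of H2A.Z, which went from 9176 ± 165 to 5542 ± 69.9 (SD, n = 3 each, log2 difference -0.73 ± 0.05, SE). DMAP1, named here because it was the one that rose, went from 920 ± 41.0 to 1254 ± 29.2 (SD, n = 3 each, log2 difference 0.45 ± 0.06, SE). The HAT genes on their own counted 3 lower and 1 higher of 5, with a median of -0.22, and TINTIN with MBTD1 counted 3 lower and 1 higher of 5, with a median of -0.38. In either direction 58.6% of all tested genes passed, and 69.1% of the abundant ones.

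Among 8 genes of proteins that act on the KAT5 protein, 3 passed as lower and 1 as higher, with a median log2 difference of -0.08. Among all tested genes 28.9% passed as lower, 29.6% as higher and 58.6% in either direction. At 1000 normalized counts or more, 48.4% passed as lower and 20.7% as higher. ATF2, a transcription factor that limits KAT5 stability, fell from 5456 ± 102 to 3852 ± 38.6 normalized counts (log2 difference -0.50 ± 0.05, SE). MDM2, a ubiquitin ligase, rose from 4006 ± 192 to 5417 ± 293 (SD, n = 3 each, log2 difference 0.44 ± 0.06, SE). Neither protein levels nor acetylation were measured in these libraries.

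The choice of scaling bore on the smaller differences. When only library sizes were equalised, the median log2 difference over all genes went from 0.01 to 0.17. Under it KAT5 and ING3 no longer passed, EPC2 passed as higher and MORF4L1 stood at 0.00012. Taken relative to the median of all genes, KAT5 was -0.31 under either scaling, ING3 was -0.23 under either and MORF4L1 was -0.16 and -0.17. MEAF6, MBTD1, MORF4L2 and MRGBP passed as lower and BRD8 as higher under both.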

How the data were processed

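RNA-seq of poly(A) RNA was analysed in 3 WT and 3 Delta-TRRAP libraries, grouped and numbered by their sample titles. The authors deposited raw counts per gene for each library: by the study's methods, uniquely mapped STAR alignments to hg38 were counted with HTSeq (2.0.2 in the submitters' processing notes) by reverse strand on GENCODE genes. The deposited normalized table, with 3 further per-sample columns of another condition, and the authors' table of fold changes and p-values were not used here.

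The test was edgeR's quasi-likelihood F test (version 4.0.16, R 4.3.3, TMM factors from all genes with a count, group as the only term), run on the 19114 genes averaging 5 normalized counts or more, of 34998 with a count. Adjusted p is Benjamini-Hochberg over all genes tested, and thresholds (adjusted p of 0.01, 2-fold) follow the study. A normalized count is the count divided by the library's TMM-adjusted size, with those sizes scaled to a geometric mean of 1. Paralog ratios used counts plus 0.5. Positions and exon lengths came from GENCODE 44 on GRCh38, with IDs matched for 19041 of the genes tested. By the study's methods the counts were made on an earlier GENCODE release. The script was tested on simulated data. DESeq2 1.42.0, limma 3.58.1 (voom), other scalings, filters and thresholds, a replicate block and leaving out each library were alternatives.

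The genes, lists and motifs were chosen with earlier results of these data known. Named genes were all 10 subunits, EP400, TRRAP, of each further list the 2-fold calls or, with fewer than 2, the 2 largest passing differences, and the 3 genes most like KAT5. Pseudogenes were named above 100 mean counts. Deviations of same-numbered libraries from their group means correlated at -0.0215 to -0.0067 over all tested genes, so no pairing by number was seen. Genes with low counts weigh as much as others in that correlation, so it could miss a pairing. Within groups, library pairs differed by 4.75 to 15.9 times the counting variance, so none was a duplicate. Counts this deep make the spread between libraries, not counting, the main error.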

Additional observations from a re-analysis of the deposited data

How the results depend on the processing

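Of 150 values of the 10 genes under 15 alternatives, 140 kept direction and side of the threshold. Those that did not were, under library size scaling, KAT5, ING3, EPC2 and MORF4L1 (which turned to 0.00012), and otherwise MORF4L1, which passed under limma-voom, with no filter and without Delta-TRRAP replicate 3, and EPC1, which missed without WT replicate 2, WT replicate 3 or Delta-TRRAP replicate 1. The cause was not tested. Leaving out each library in turn, 6 to 7 genes passed as lower, 1 to 2 as higher and 1 was called at 2-fold. With a 1.5-fold limit 2 were called. EP400 ranged from -0.047 to 0.26 and TRRAP from -0.14 to 0.15 on leaving out a library, with TRRAP at -0.03 without WT replicate 1 and -0.01 without WT replicate 2. Leaving out a library left the EPC2 to EPC1 difference at -0.21 to -0.11 and the MORF4L2 to MORF4L1 difference at -0.25 to -0.19. With the replicate number as a replicate block, 6 genes passed as lower, 2 as higher and 1 was called, the ratio differences were -0.15 and -0.23, MRGBP was -1.52 and BRD8 0.60, and no call of the 10 genes changed. Total calls over all genes went from 4307 to 5098 with no filter and to 1969 at a mean count of 50, where fewer genes were tested. Neighbour medians around MRGBP were -0.68 at 2 Mb and -0.65 at 10 Mb, and around BRD8 0.33 and 0.26. Around ING3 and EPC1 they changed sign with the window. The alternatives for genes outside the 10 were added after the data were seen.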
